A study of Solanum lycopersicum with 27 samples.

Results

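Fruit of the tomato double mutant rin/tdr4-1 was compared with wild-type (WT) fruit at 34 days post anthesis (dpa). The comparison was set by the genotype and age that head the columns of the deposited table. It takes in 6 of the 27 RNA sequencing libraries of the series, 3 of rin/tdr4-1 and 3 of WT. By the labels, all fruit was untreated and of the cultivar Ailsa Craig, total RNA was taken from fruits, and every genotype sampled at 34 dpa carries the breaker stage in its label. The labels do not say whether mutant fruit of that age showed the colour change that defines this stage. They also do not number the rin allele of the double mutant, and give neither the number of lines nor the number of fruits in a library. Further groups of 3 libraries each, of other genotypes or of younger fruit, serve below as a view of the same genes in samples outside the comparison. These are the mutants rin-1, tdr4-1, nor-1 and dml2-3 at 34 dpa and the genotypes rin/tdr4-1, dml2-3 and WT at 25 dpa, before ripening.

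RIN and TDR4 (also known as FUL1) are MADS-box transcription factors, RIN of the SEPALLATA type and TDR4 of the FRUITFULL type. MADS-box proteins bind DNA in complexes with each other. RIN is known to bind genes of ethylene synthesis, cell wall softening and carotenoid synthesis, and its level climbs as ripening starts. NOR is a NAC transcription factor, and DML2 is a DNA demethylase that acts at ripening genes. The title of the series names MADS-box factors as mediators of epigenetic control over fruit ripening.

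The table holds FPKM values, fragment numbers divided by the length of the gene and by the total mapped in that library. It identifies genes by number only. None of its 34075 identifiers was found in the RefSeq gene table used here, so genes are given below by identifier and by their behaviour, without name or function. The transcripts of the mutated genes, and marker genes of fruit tissues, could therefore not be looked up as a check of the labels. Read depth is unknown, since FPKM keeps no read numbers, and the columns summed to between 863193 and 1122755. Within the rin/tdr4-1 libraries at 34 dpa the correlation of log2(FPKM + 1) values across genes was 0.988 to 0.99, and within the WT libraries it was 0.985 to 0.99. In 1 group outside the comparison, dml2-3 at 25 dpa, it went down to 0.916 because of replicate 3, which takes part in the shared estimate of the spread. Since no label says whether replicates are fruit of different plants, the p-values speak for the spread among libraries only.

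In the values as deposited, more genes reached a given FPKM in the double mutant, and less of the signal sat in a few genes. At 1 FPKM or more there were 16986, 17001 and 17051 genes in the rin/tdr4-1 libraries and 15130, 15315 and 15117 in the WT libraries. At 10 FPKM or more there were 11346, 11383 and 11402 genes in rin/tdr4-1 and 8891, 9311 and 8906 in WT. The genotypes did not overlap on either count, nor at 100 FPKM or more, where the mean was 1567 ± 5.2 genes in rin/tdr4-1 and 1398 ± 24.8 in WT (SD, n = 3 each). The 100 most abundant genes of each library held 30.4%, 31.1% and 31% of the FPKM total in rin/tdr4-1, against 44.3%, 40.8% and 42.8% in WT. Each of these differences gave p = 0.1 in a two-sided exact permutation test over the 20 assignments of 6 libraries, the smallest value that 3 against 3 can give. The values of a library share 1 total, so that the level at which a gene reads depends on what share the most abundant genes take. The counts of genes at a given FPKM were not repeated with the size factors used below, so how far they reflect this was not tested.

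The test covered 18906 genes that reached 1 FPKM in 3 or more libraries of the series. Of these, 14462 (76.5%) were called different between the genotypes by limma at an adjusted p under 0.05. As deposited, 11585 (61.3%) were higher and 2877 (15.2%) lower in rin/tdr4-1. That balance depended on scaling. The median gene differed by 0.51 on the log2 scale as deposited and by 0.04 after division by size factors, where 6942 genes (36.7%) were higher and 6466 (34.2%) lower. In the values as deposited all rin/tdr4-1 libraries lay above all WT libraries for 12010 genes (63.5%), and below for 3083 (16.3%).

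Genes that fell or rose under both scalings by 2-fold or more were therefore used to describe the difference. There were 980 fallen genes, which is 5.18% of the genes tested, and 2861 risen genes, which is 15.1%. By 2-fold or more, 982 genes were lower and 5011 higher as deposited, and 2032 lower and 2861 higher with size factors. The values as deposited thus limited the falls and the size factors the rises. The balance of fallen to risen genes therefore belongs to neither scaling. Among genes called under both scalings, 379 fell and 858 rose by 4-fold or more, 104 fell and 102 rose by 16-fold or more, and 34 fell and 16 rose by 64-fold or more. With a pseudocount of 0.1 in place of 1, 533 fell and 1902 rose by 4-fold or more, 164 fell and 398 rose by 16-fold or more, and 58 fell and 78 rose by 64-fold or more, so that the balance among large differences depended on the pseudocount. Folds here are on the log2(FPKM + 1) scale, which understates the change of genes of low level. In bulk fruit samples, fewer cells of a type and less RNA per cell cannot be told apart.

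**Figure D1:**
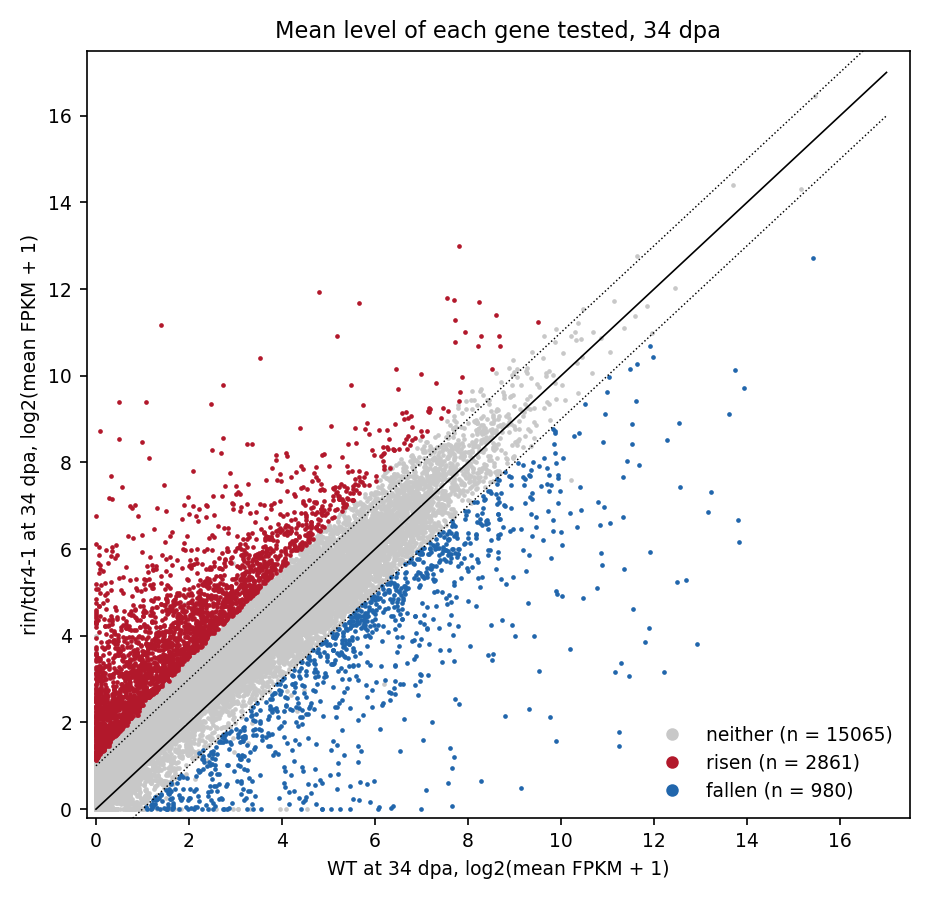
Mean level of each of the 18906 genes tested in rin/tdr4-1 fruit (vertical axis) and WT fruit (horizontal axis) at 34 dpa, as log2(mean FPKM + 1) over 3 libraries each. The solid line marks equal levels and the dotted lines 2-fold. The 980 fallen genes (blue) extend to the highest WT levels, while the 2861 risen genes (red) crowd towards low WT levels.

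The largest fall was that of Solyc10g050990.2. It was listed at 0, 5.3 and 0 FPKM in the rin/tdr4-1 libraries, against 2349, 2836 and 2158 FPKM in the WT libraries. The log2 difference was -10.36 (SE 0.87, limma adjusted p = 5.96e-10), lower in 3 of 3 libraries, and -12.65 with a pseudocount of 0.1, so its size is set by values at or near 0. The gene was likewise listed at 4.24, 0 and 0 FPKM in rin-1 and at 0 in all 3 libraries of dml2-3 at 34 dpa. In nor-1 it read 6.56, 27.5 and 25.1 FPKM. In tdr4-1 it was abundant, at 973, 924 and 1219 FPKM.

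The second largest fall was that of Solyc08g066240.3. Its values were 2.4, 2.34 and 2.49 FPKM in rin/tdr4-1 and 2311, 2701 and 2239 FPKM in WT. On the log2 scale the double mutant was at -9.47 relative to WT (SE 0.25, limma adjusted p = 1.76e-18). The spread within each genotype was small beside this gap. As for the first gene, the libraries of rin-1 were low and those of tdr4-1 high, at 1.57, 2.03 and 1.54 FPKM and at 1931, 1961 and 1984 FPKM. The nor-1 libraries took a middle place at 769, 792 and 803 FPKM. Those of dml2-3 at 34 dpa were lower than the double mutant, at 0.62, 0.36 and 0.31 FPKM.

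Solyc10g009190.1 showed the largest rise on the log2(FPKM + 1) scale. It was at 2350, 2285 and 2235 FPKM in rin/tdr4-1 and at 1.52, 1.33 and 2.06 FPKM in WT. The log2 difference came to 9.77 (SE 0.13, limma adjusted p = 5.85e-23), and to 10.39 with a pseudocount of 0.1. No other group of the series came near the level of the double mutant. The gene read 29.8 to 37.1 FPKM in rin-1, 3.04 to 4.58 FPKM in tdr4-1, 74.5 to 112 FPKM in nor-1 and 381 to 477 FPKM in dml2-3 at 34 dpa. In younger fruit it read 50.9 to 60.9 FPKM in rin/tdr4-1, 383 to 415 FPKM in dml2-3 and 60.2 to 63.9 FPKM in WT.

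Solyc03g121180.4 had the second largest rise on this scale, with 685, 664 and 655 FPKM in rin/tdr4-1 and 0.26, 0.29 and 0.67 FPKM in WT (log2 difference 8.91, SE 0.13, limma adjusted p = 2.29e-22). With a pseudocount of 0.1 its difference was 10.45, so that the order of these 2 rises turned. Among the other mutants at 34 dpa it stood at 240 to 281 FPKM in dml2-3, 53.2 to 70.8 FPKM in rin-1, 11.4 to 14.1 FPKM in nor-1 and 1.34 to 2.17 FPKM in tdr4-1. At 25 dpa it was at 172 to 181 FPKM in rin/tdr4-1, 176 to 246 FPKM in dml2-3 and 104 to 122 FPKM in WT. At 34 dpa each of the 4 genes kept its direction and its call in every alternative that was run.

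**Figure D2:**
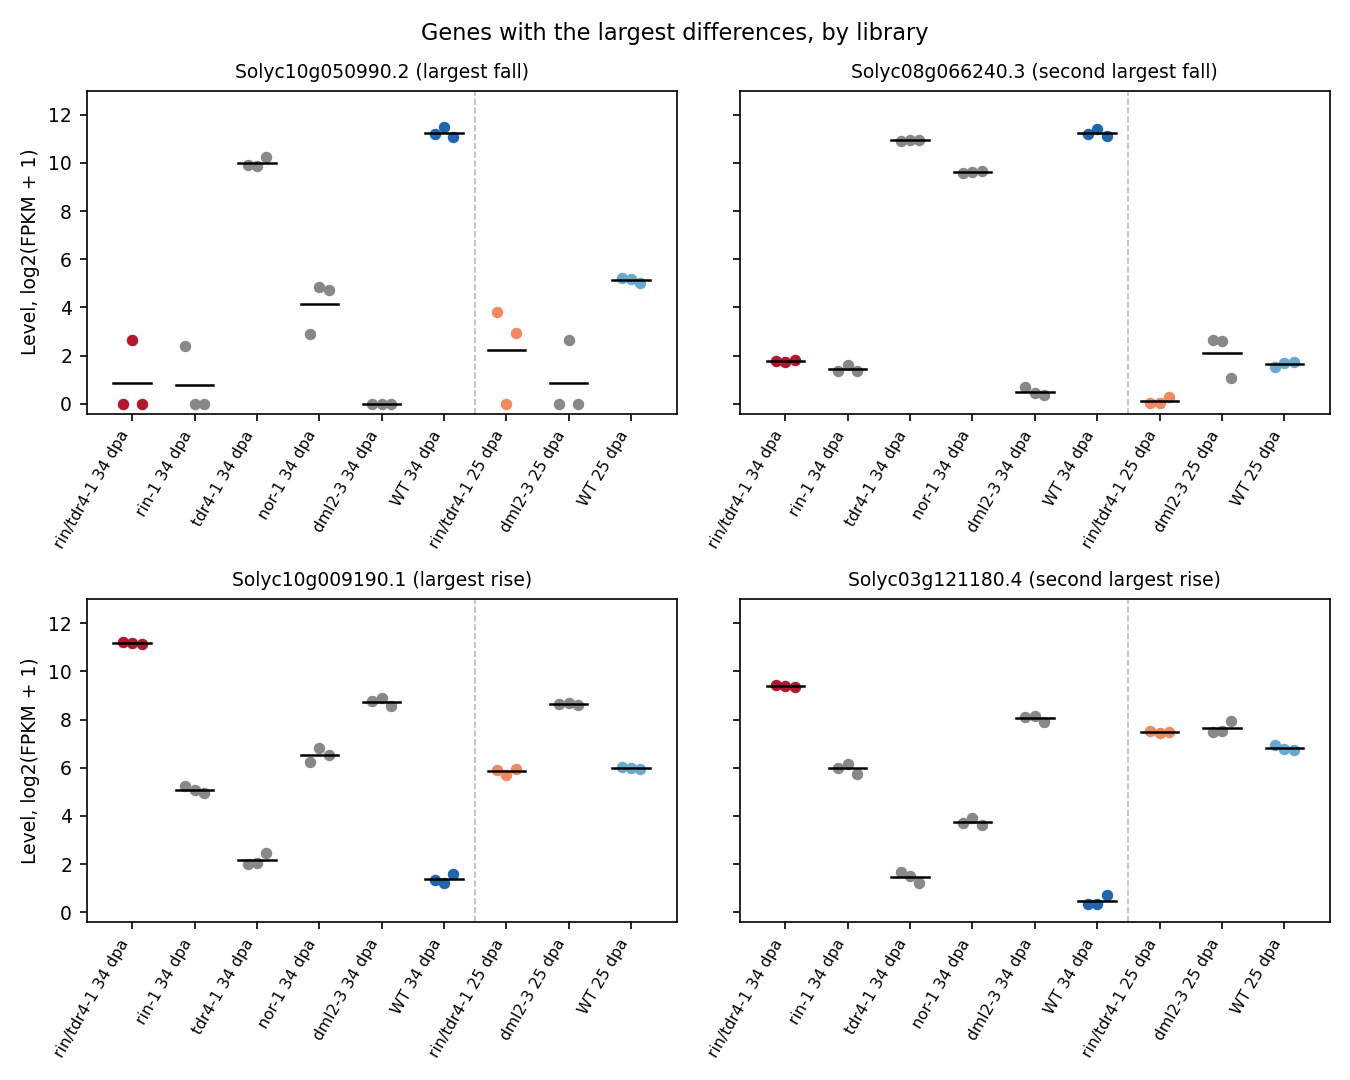
Level of the 2 genes with the largest falls (top) and the 2 with the largest rises (bottom) in every library, as log2(FPKM + 1). The genes are ranked at a pseudocount of 1. Points are single libraries, bars are means of 3, and the dashed line separates 34 dpa from 25 dpa. At 34 dpa both falling genes were low in rin/tdr4-1, rin-1 and dml2-3 and high in tdr4-1 and WT. Both rising genes were highest in rin/tdr4-1 at 34 dpa.

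The genes were chosen by the difference between rin/tdr4-1 and WT at 34 dpa. The rin-1 and tdr4-1 libraries entered that choice through the filter on low values, the shared spread and the size factors. The difference between these single mutants was measured in libraries outside that comparison. A fit to the compared groups alone, without those libraries in the filter or the spread, gave 975 fallen and 2841 risen genes. Solyc10g050990.2 was lower in rin-1 than in tdr4-1, at a log2 difference of -9.21 (limma adjusted p = 6.71e-09, SE 0.87). So was Solyc08g066240.3, at -9.50 (adjusted p = 3.47e-18, SE 0.25). Solyc10g009190.1 was higher in rin-1 by 2.92 (SE 0.13, adjusted p = 4.86e-14) and Solyc03g121180.4 by 4.51 (SE 0.13, adjusted p = 2.91e-17). For the rising genes the rin-1 level nonetheless lay far under that of the double mutant, as the plot of single libraries shows.

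The fallen genes made up a large part of the WT transcriptome. They held 5.54%, 5.46% and 5.53% of the FPKM total in the rin/tdr4-1 libraries and 39.7%, 37.9% and 38.8% in the WT libraries. This is what the choice of the genes makes of these 6 libraries and carries no test, while the levels of the other groups were not compared in the choice. There the fallen genes held 18.3% ± 0.254 of the total in rin-1, 39.1% ± 0.219 in tdr4-1, 27.2% ± 0.672 in nor-1 and 7.64% ± 0.121 in dml2-3 at 34 dpa. At 25 dpa they held 9.61% ± 0.327 in rin/tdr4-1 and 9.51% ± 0.577 in WT (mean ± SD, n = 3 each).

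The risen genes showed the opposite picture. They held 17%, 16.8% and 16.9% of the FPKM total in the rin/tdr4-1 libraries and 2.19%, 2.47% and 2.2% in the WT libraries. Elsewhere at 34 dpa their share was 7.85% ± 0.159 in rin-1, 2.8% ± 0.109 in tdr4-1, 5.3% ± 0.131 in nor-1 and 13.2% ± 0.23 in dml2-3. In fruit of 25 dpa it was 13.9% ± 0.102 in rin/tdr4-1 and 13.9% ± 0.548 in WT (mean ± SD, n = 3 each).

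**Figure D3:**
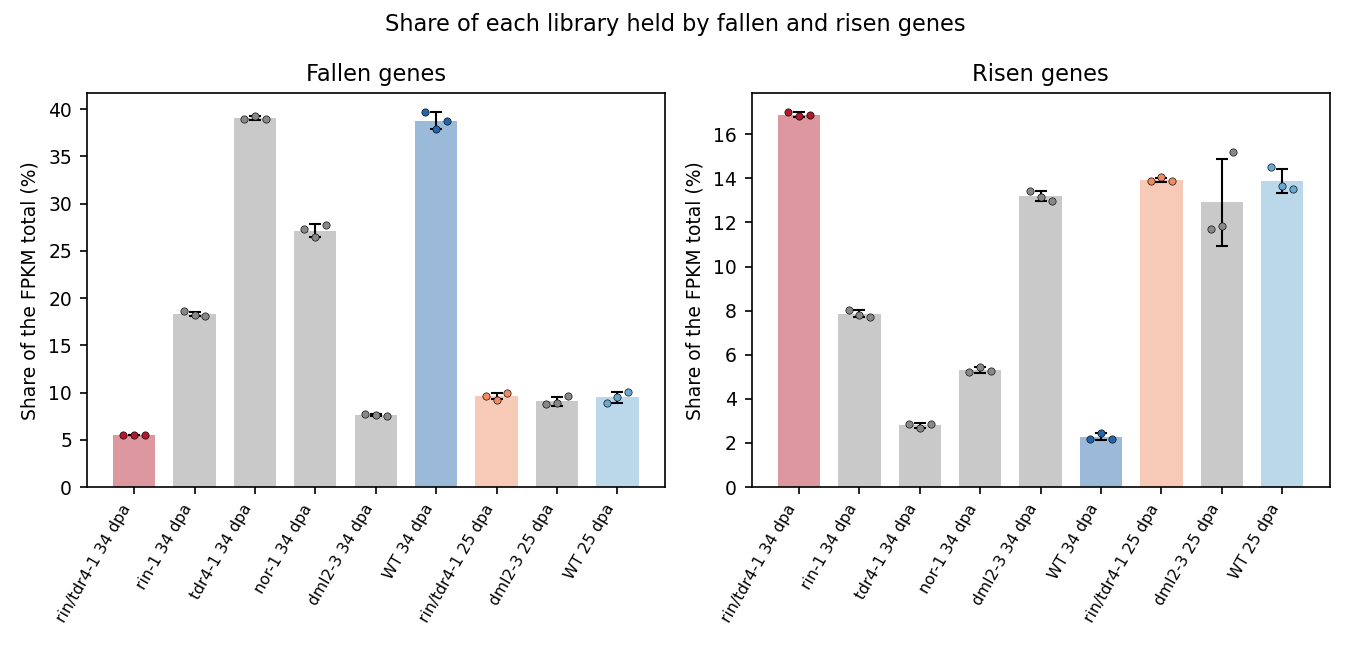
Share of the FPKM total of each library held by the 980 fallen genes (left) and the 2861 risen genes (right). Bars are means of 3 libraries, error bars are SD and points are libraries. The genes were chosen on the rin/tdr4-1 and WT libraries at 34 dpa. In the other groups the share of fallen genes was highest in tdr4-1 (39.1%) and lowest in dml2-3 at 34 dpa (7.64%).

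Among the 100 most abundant genes of WT fruit, 70 were fallen genes, 0 were risen genes and 30 were neither. Their median level was 320.02 FPKM in rin/tdr4-1 and 2011 FPKM in WT. Of the 100 most abundant genes of rin/tdr4-1 fruit, 9 were fallen, 27 risen and 64 neither, with medians of 1202 FPKM in rin/tdr4-1 and 627 FPKM in WT. The lists shared 37 genes. Ranking genes by their level in 1 of the genotypes favours those that are higher there, so these counts describe the libraries and were not tested.

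By gene, the median fallen gene stood at 12.7 FPKM in rin/tdr4-1 and 54.8 FPKM in WT at 34 dpa. At 25 dpa its median was 15 FPKM in rin/tdr4-1 and 16.7 FPKM in WT. The median risen gene stood at 13.5 FPKM in rin/tdr4-1 and 1.72 FPKM in WT at 34 dpa, and at 12.2 FPKM in rin/tdr4-1 and 12.3 FPKM in WT at 25 dpa. For fallen and risen genes alike, the 34 dpa median of the double mutant was nearer than that of WT to the medians at 25 dpa. Over all genes tested the medians were 15 FPKM in rin/tdr4-1 and 9.01 FPKM in WT at 34 dpa, and 14.8 FPKM in rin/tdr4-1 and 15.1 FPKM in WT at 25 dpa. The medians given here are of values as deposited and were not repeated with size factors. After division by size factors, the median gene differed by 0.04 on the log2 scale between the genotypes at 34 dpa.

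A smaller set of genes passed between clear expression and near silence. Lost genes were fallen genes with at least 10 FPKM in each WT library and under 1 FPKM in each rin/tdr4-1 library, and gained genes were risen genes with the reverse. There were 41 lost genes (0.217% of the genes tested) and 159 gained genes (0.841%). The medians of the lost genes were 0.293 FPKM in rin/tdr4-1 and 32 FPKM in WT, and those of the gained genes 18.3 FPKM in rin/tdr4-1 and 0.327 FPKM in WT. Both sets are fixed by their definition in these 6 libraries, and the filter on low values passes such a gene through the group where it is high.

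In the other libraries, 8 of the 41 lost genes had at least 10 FPKM in each rin-1 library, 31 in each tdr4-1 library, 14 in each nor-1 library and 2 in each library of dml2-3 at 34 dpa. These are 19.5%, 75.6%, 34.1% and 4.88% of the lost genes, against 53.2%, 45.6%, 48.1% and 56.2% of all genes tested in the same groups. All 8 that passed this level in rin-1 also did so in tdr4-1, 23 did so in tdr4-1 alone and 10 in neither single mutant. At 25 dpa 2 of the 41 (4.88%) did so in rin/tdr4-1 and 3 (7.32%) in WT, against 58.6% and 58.3% of all genes tested. The median level of the lost genes was 1.05 FPKM in rin-1 and 28.7 FPKM in tdr4-1, the last being near that of WT.

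At least 10 FPKM in each library was reached by 19 of the 159 gained genes in rin-1, 0 in tdr4-1, 9 in nor-1 and 63 in dml2-3 at 34 dpa, which is 11.9%, 0%, 5.66% and 39.6% of them, against the shares of all genes tested given above (53.2%, 45.6%, 48.1% and 56.2%). Of the 159, 140 reached it in neither rin-1 nor tdr4-1. In fruit of 25 dpa it was reached by 89 (56%) in rin/tdr4-1 and 82 (51.6%) in WT, against the 58.6% and 58.3% of all genes tested given above. Their median level at 25 dpa was 13 FPKM in rin/tdr4-1 and 11.9 FPKM in WT, and in rin-1 and tdr4-1 at 34 dpa it was 3.46 and 0.537 FPKM.

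**Figure D4:**
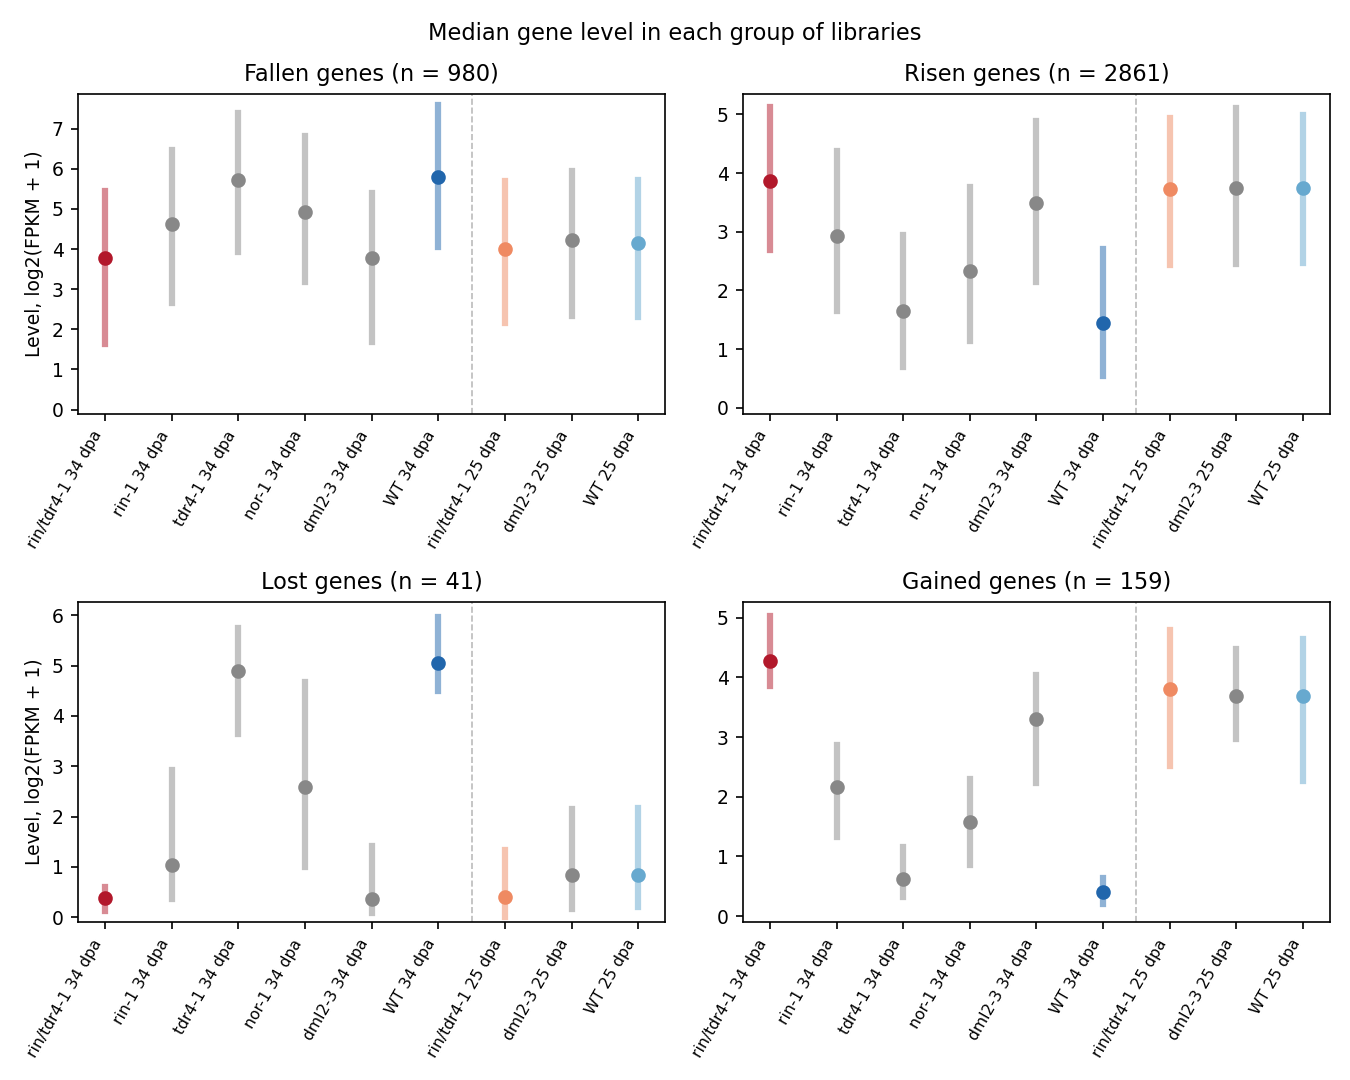
Level of fallen, risen, lost and gained genes in each group, as log2(FPKM + 1) of the median gene (point) and of the lower and upper quartiles (line) of group means over 3 libraries. The dashed line separates 34 dpa from 25 dpa. Lost genes were low in rin-1 (median 1.05 FPKM) and near WT level in tdr4-1 (28.7 FPKM), and gained genes had medians of 13 FPKM in rin/tdr4-1 and 11.9 FPKM in WT at 25 dpa, where the medians of all genes tested were 14.8 and 15.1 FPKM.

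The difference between the single mutants was then followed over the whole groups. Relative to tdr4-1, rin-1 had lower values for 663 of the 980 fallen genes (67.7%) and higher values for 112 (11.4%), with a median log2 difference of -0.79. Over all genes tested, 2717 (14.4%) were lower and 9703 (51.3%) higher, with a median of 0.30 (limma adjusted p under 0.05 for every call). Of the 2861 risen genes, 2264 (79.1%) were higher and 64 (2.24%) lower in rin-1, with a median of 1.06. With size factors, 752 fallen genes were lower and 71 higher, 2037 risen genes were higher and 116 lower, and over all genes 6120 (32.4%) were higher and 5944 (31.4%) lower about a median of 0.01. Most fallen genes were thus lower, and most risen genes higher, in the mutant of RIN than in the mutant of TDR4 under either scaling.

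The same genotypes at 25 dpa gave the state before ripening, again in libraries whose levels were not compared to choose the genes. Of the fallen genes, 210 (21.4%) were higher and 193 (19.7%) lower in rin/tdr4-1 than in WT at 25 dpa, about a median log2 difference of 0.04. Of the risen genes, 547 (19.1%) were higher and 472 (16.5%) lower, about a median of 0.03. Among all genes tested 3290 (17.4%) were higher and 2893 (15.3%) lower, about a median of 0.02 (limma adjusted p under 0.05 for every call). At 2-fold or more, 41 fallen genes (4.18%) were higher and 92 (9.39%) lower, and 99 risen genes (3.46%) were higher and 160 (5.59%) lower, against 266 (1.41%) higher and 874 (4.62%) lower among all genes. Fallen and risen genes thus went both ways at 25 dpa. Tested directly in the same fit, the genotype difference changed between 25 and 34 dpa for 13306 genes (70.4% of the genes tested). It was higher at 34 dpa for 10573 genes (55.9% of the genes tested) and lower for 2733 (14.5%). With size factors these were 6471 (34.2%) and 5878 (31.1%).

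Of the 4 genes followed above, 3 were called at 25 dpa. Solyc08g066240.3 read 0.02, 0.04 and 0.23 FPKM in rin/tdr4-1 and 1.88, 2.22 and 2.33 FPKM in WT (log2 difference -1.52, SE 0.25, limma adjusted p = 5.5e-05), and -3.66 with a pseudocount of 0.1. Solyc03g121180.4 was higher by 0.66 (SE 0.13, adjusted p = 0.000556). Solyc10g009190.1 differed by -0.14 (SE 0.13, adjusted p = 0.463). Solyc10g050990.2 was at 13, 0 and 6.69 FPKM in rin/tdr4-1 and 36.1, 34.9 and 31.1 FPKM in WT. Its log2 difference was -2.88 (SE 0.87, adjusted p = 0.0145). That call ended without replicate 2 of rin/tdr4-1, the library listed at 0, where the difference was -1.75 (adjusted p = 0.13), in a fit to the compared groups alone (adjusted p = 0.0613) and with a pseudocount of 0.1 (-4.04, adjusted p = 0.0903). Over all alternatives its adjusted p ran from 0.00519 to 0.13.

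**Figure D5:**
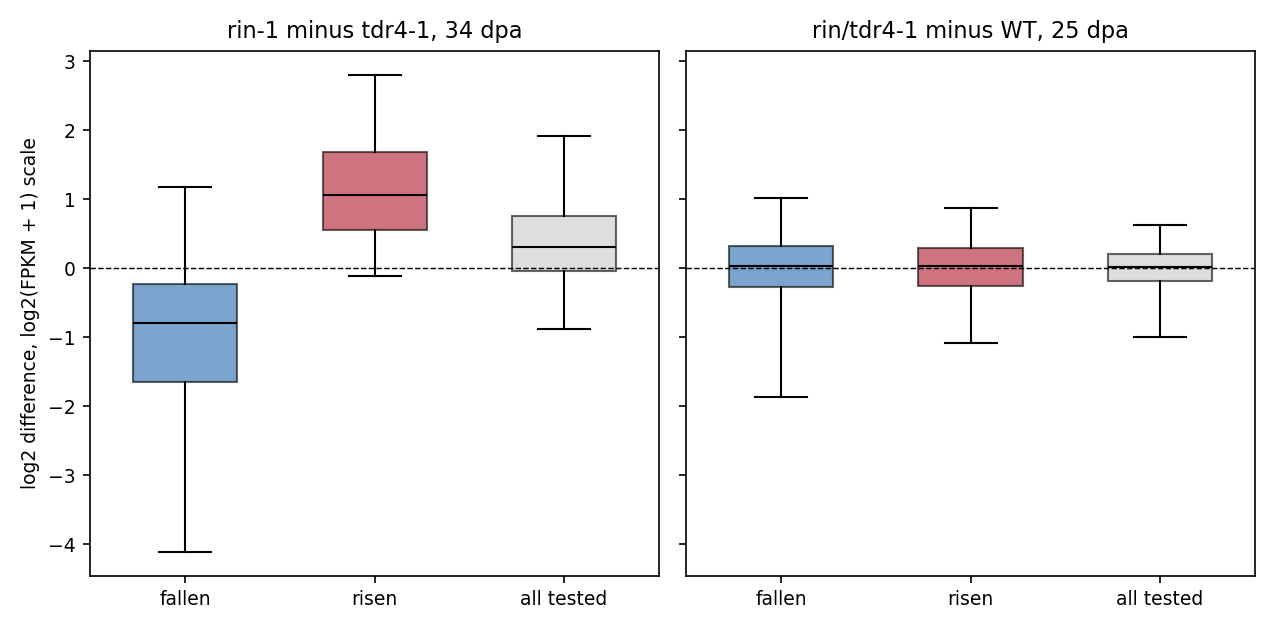
log2 differences on the log2(FPKM + 1) scale between libraries outside the difference by which the genes were chosen, for fallen, risen and all genes tested. The left panel gives rin-1 minus tdr4-1 at 34 dpa, and the right panel rin/tdr4-1 minus WT at 25 dpa. Boxes span the quartiles with the median as a line, and whiskers reach the 5th and 95th percentiles. At 34 dpa the medians were -0.79 for fallen, 1.06 for risen and 0.30 for all genes, and at 25 dpa all medians lay near 0.

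The level of a gene in WT fruit of 25 dpa was set beside its difference at 34 dpa. Of the 1377 genes under 1 FPKM at that age, 9.44% were fallen genes and 16.6% risen genes at 34 dpa. From 1 to 10 FPKM the shares were 4.38% and 16.9% of 5962 genes, from 10 to 100 FPKM 4.59% and 14% of 9831 genes, and from 100 to 1000 FPKM 7.78% and 14.2% of 1671 genes. At 1000 FPKM or more there were 65 genes, of which 8 were fallen (12.3%) and 15 risen (23.1%). Genes in the lowest class could pass the filter on low values only with libraries of other groups at 1 FPKM or more, so their shares are shaped by that filter.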

How the data were processed

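The authors deposited 1 table of FPKM values with 1 column per library, each replicate on its own. Per the submitters' processing notes, the tools were Trimmomatic, STAR 2.5.4b, RSEM and DESeq2, whose roles and order are not stated. Genome build and annotation: not given in the sources used here. All columns were tied to 1 sample by title, and 0 pairs of libraries were identical. Genes reaching 1 FPKM in 3 or more of the 27 libraries were kept, and log2(FPKM + 1) was fitted with 1 mean per group over all 27 libraries in limma 3.58.1 (R 4.3.3, empirical Bayes with trend). Benjamini-Hochberg adjustment ran over all 18906 genes tested. The fit was tested on simulated data in which a small part of the genes was changed, up or down at random. No shift of the median gene was simulated. That setting differs from the comparison at 34 dpa, so the simulation does not speak for the calls made there. Size factors were medians of ratios of FPKM over genes above 0 in every library. Ratios of low values (0.1 to 1 FPKM) to replicate 1 of WT at 34 dpa were searched for a step of single reads. At most 4.1% of genes lay in any 2% wide step. Rounding of the listed values blurs such ratios, so this search could not settle whether steps exist. No count test was run, and precision rests on the spread between replicates.

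The genes given by identifier were the 2 largest falls and 2 largest rises among called genes whose higher group averaged 10 FPKM or more and whose groups did not overlap. The rule also asked for the mutated genes and for lists by symbol (ripening regulators, ethylene, carotenoids, softening, photosynthesis, DNA methylation, seed and cuticle). These could not be filled, as 0 of the 34075 identifiers matched the 41476 genes of RefSeq (assembly SLM_r2.1). Members, groups and lists were chosen with earlier results of these data known. Alternatives were another pseudocount, other filters, size factors, TPM, quantile scaling, fewer libraries in the fit, a replicate block and leaving out each library.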

Additional observations from a re-analysis of the deposited data

Results flagged for a closer look

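The difference between rin/tdr4-1 and WT was not the same at 34 and at 25 dpa. The change of that difference between the ages was called by limma for 13306 of 18906 genes. The 4 genes given by identifier were chosen by their difference at 34 dpa. The change between ages reuses that difference, so a large change was largely set by the choice, and the tests add no separate support. The change of the log2 difference was -7.49 for Solyc10g050990.2 (SE 1.24, adjusted p = 1.62e-05), -7.94 for Solyc08g066240.3 (SE 0.35, adjusted p = 2.63e-14), 9.91 for Solyc10g009190.1 (SE 0.19, adjusted p = 3.55e-20) and 8.24 for Solyc03g121180.4 (SE 0.19, adjusted p = 4.04e-19).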

How the results depend on the processing

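For genes called, and called at 2-fold or more, scaling was the choice that moved counts by over 1.5 times. Counts of larger differences under both scalings also moved that far with the pseudocount. Rises of 4-fold or more numbered 858 at a pseudocount of 1 and 1902 at 0.1, and falls of 16-fold or more 104 and 164. For rin/tdr4-1 against WT at 34 dpa, 6942 genes were higher and 6466 lower with size factors and 6491 higher and 6688 lower with quantile scaling, against 11585 and 2877 as deposited. At 2-fold or more these were 2861 higher and 2032 lower with size factors and 2345 higher and 1928 lower with quantile scaling, against 5011 and 982. The change between ages gave 6471 higher and 5878 lower with size factors and 5617 higher and 6288 lower with quantile scaling. For rin-1 against tdr4-1 it was 6120 higher and 5944 lower with size factors and 5463 higher and 6255 lower with quantile scaling. With TPM the gap in genes at 100 FPKM or more grew to 253, against 169 as deposited. The cause of these moves was not tested beyond the shift of the median gene. With 1 library left out, the genes called at 34 dpa numbered 13817 to 14359, fallen genes 956 to 986 and risen genes 2817 to 2894. The replicate block gave 14443 genes called, and same-numbered libraries of the 2 genotypes deviated with r of 0.01, -0.01 and -0.05, so the numbers were not taken to pair samples. Among the remaining values, each set against its alternatives, 397 kept their direction and call or moved little, 8 moved further, 3 lost their call and 0 reversed. The 3 are the 25 dpa difference of Solyc10g050990.2 given above. Depth limits could not be stated, since read numbers are unknown. Without replicate 3 of dml2-3 at 25 dpa, 15242 genes were called at 34 dpa and 8091 at 25 dpa, against 6183 with it.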

Other observations

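The identifiers number genes along each chromosome, which allows a rough view of position. Fallen genes made up between 3.87% (chromosome 11) and 6.55% (chromosome 10) of the genes tested on a chromosome, and risen genes between 13.3% (chromosome 3) and 17.9% (chromosome 12). Of the 980 fallen genes, 190 (19.4%) had another fallen gene as the next or the preceding tested identifier, against 10% of all genes tested. Of the 2861 risen genes, 1024 (35.8%) had a risen neighbour, against 27.7% of all genes tested. The longest run of consecutive fallen genes held 7 genes and the longest run of risen genes 6. Neighbouring genes may be near-identical copies between which reads were divided, and the part of this in the counts was not tested.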
